A study of Mus musculus with 64 samples.

Results

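RPB8 is a small subunit that sits in all 3 nuclear RNA polymerases: Pol I, which makes ribosomal RNA, Pol II, which makes mRNA, and Pol III, which makes transfer RNA and other small RNAs. It is encoded by Polr2h and shares this place in every polymerase with the products of Polr2e, Polr2f, Polr2k and Polr2l. RPB1 is the catalytic subunit of Pol II alone, and RPB5 and RPB6 are, like RPB8, part of all 3 enzymes. The level of an mRNA reflects both how fast it is made and how fast it is degraded.

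The libraries described were 4 of 64 in the series: RPB8 degron cells after 12 h of indole-3-acetic acid (IAA, an auxin), and the same line without it, with 2 libraries in each group. The cells were V6.5 mouse embryonic stem cells in which RPB8 was tagged with an auxin-inducible degron, which sends the protein for destruction once auxin and the plant receptor OsTir1 are both present. Doxycycline had switched on OsTir1 for 12 h in both groups, at 2 µg/ml by the sample notes and 1 µg/ml by the series notes, and treated cells then received 500 µM IAA. All cells grew with 3 µM CHIR99021 and 0.5 µM PD0325901, inhibitors of GSK3 and MEK, so both groups shared a blocked MEK pathway. The sources used here do not say whether the line is 1 clone, and the loss of RPB8 protein was not measured in these data. Lines with a degron on RPB1, RPB5 or RPB6 and wild-type (WT) cells, each with 2 untreated and 2 IAA libraries, served for comparison. They do not say either whether the WT cells carried OsTir1. These lines share no library with RPB8, so each difference between lines rests on 8 separate libraries. The labels do not state that replicate libraries were made from different cultures, and all p-values then rest on the spread between these samples alone, which may be technical.

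Polyadenylated RNA was counted per gene. The untreated libraries held 5641336 and 5399494 counts, and the IAA libraries held 3814143 and 3399838. The 10 markers of embryonic stem cells were all detected, and their summed level was 6315 and 5932 CPM (counts scaled to a common library size) of all counts without IAA and 3964 and 4260 CPM with it. The 8 fibroblast markers summed to 7.8 and 9.445 CPM without IAA and 10.49 and 10.88 CPM with it, with Col1a2, Col3a1, Postn, Dcn and Lum at 0 in untreated cells. Defining markers of primitive endoderm (7), trophectoderm (5), mesoderm (5) and neuroectoderm (6) summed to at most 99.98 CPM in any library. The wider list of primitive endoderm genes, 8 of them tested, summed to 856.3 and 857.2 TMM-scaled CPM without IAA and 1671 and 1741 CPM with it, mostly from Sparc, a matrix glycoprotein (701.6 and 696.5 CPM without IAA, 1559 and 1634 CPM with it, lower with mitochondrial scaling). The wider trophectoderm list summed to 200.3 and 181.3 CPM without IAA and 135 and 139.6 CPM with it. Their part in the results below was not tested. In bulk RNA, fewer cells of a type and less RNA per cell cannot be told apart.

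After IAA, 11065 of 17928 tested genes (61.7%) passed edgeR's quasi-likelihood test at a Benjamini-Hochberg adjusted p of 0.05. Of these, 5642 genes (31.5% of those tested) rose and 5423 (30.2%) fell. These shares are the background for the counts of every gene list below. A change of 1 or more on the log2 scale, up or down, was seen in 6575 called genes (36.7%), of which 3381 (18.9%) rose and 3194 (17.8%) fell. WT cells under the same treatment had 295 called genes (1.65%). These counts describe shares of a library, since the level of total mRNA was not measured here. The 13 mRNAs of the mitochondrial genome, which a separate polymerase makes, took 1.352% and 1.579% of counts without IAA and 3.615% and 3.803% with it. When libraries were scaled to those mRNAs in place of TMM, the median over all genes moved on the log2 scale from 0.04 to -1.44, and 1003 genes were higher and 11799 lower. Scaling to total counts gave 4895 higher and 6211 lower, or 44.1% higher among the called genes against 51.0% with TMM. Directions below are relative to the bulk of each library, and the main lists that mostly rose are given with both medians where these differ in sign. The same holds for differences between lines: with mitochondrial scaling 63 genes responded more highly than in RPB1 and 72 than in RPB5, against 3711 and 2853 with TMM. Single genes that rose by less than that shift are lower, not higher, with that scaling.

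The mRNA of the tagged subunit was itself higher after IAA with TMM scaling, a direction that turned with mitochondrial scaling (log2 -0.596). Polr2h (chromosome 16, 20717665 to 20722267, plus strand) stood at 49.3 and 41.9 TMM-scaled CPM in the untreated libraries and at 80.4 and 92.8 CPM with IAA. The groups did not overlap, and the log2 fold change was 0.92 ± 0.13 (SE, n = 2 and 2, adjusted p = 2.8e-08). Because the degron acts on the protein, this mRNA does not check the loss of RPB8. With TMM scaling the change was 0.95 greater than in WT (adjusted p = 1.8e-05), 1.00 greater than in RPB1 (1.2e-05) and 0.63 greater than in RPB5 (0.0049). With mitochondrial scaling only 63 of all genes were above RPB1 and 72 above RPB5. The difference from RPB6, with TMM scaling, was 0.10 with an adjusted p of 0.69.

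Genes of the other polymerase subunits differed by enzyme. All 5 shared subunit genes rose (3 with scaling to total counts, without Polr2f and Polr2k), with a median log2 fold change of 0.72 against 0.04 over all genes, a median that turned to -0.80 under mitochondrial scaling. Polr2l, which encodes RPB10, rose by 1.63, Polr2e by 0.71, Polr2k by 0.55 and Polr2f by 0.42. Of 7 tested genes of Pol II alone, 4 rose and 2 fell (median 0.61, and -0.90 with mitochondrial scaling), and with DESeq2's size factors, with DESeq2 or at a mean of 5 CPM or more 0 fell. Polr2a, for the catalytic subunit RPB1, went from 323.9 and 365.6 CPM to 632.1 and 603.4 CPM, a log2 change of 0.84 ± 0.12. In the RPB1 line the same mRNA changed by 2.52, and the difference of the responses passed the test (-1.68, adjusted p = 3.7e-11). Polr2d rose by 1.75, Polr2c by 0.70 and Polr2g by 0.61, Polr2b fell by 0.27 and Polr2i fell by 0.54, and Polr2j was at -0.23 with an adjusted p of 0.343. Some of these calls depended on which libraries were used. Polr2k was not called when any 1 of the 4 libraries was left out (0.47 to 0.59), nor Polr2f without untreated replicate 2 (0.24), IAA replicate 1 (0.38) or IAA replicate 2 (0.35). Polr2b was not called without untreated replicate 1 (-0.23), nor Polr2i without that library (-0.53), IAA replicate 1 (-0.59) or IAA replicate 2 (-0.60). Of 13 genes for Pol I subunits and factors, 3 rose and 8 fell, with a median of -0.45. Polr1b, the second largest Pol I subunit, fell from 127.8 and 128.9 CPM to 50.05 and 54.35 CPM. Taf1d, part of the Pol I selectivity factor, rose by 0.94 ± 0.10, whereas its log2 fold change was -1.61 in RPB1 and -0.97 in RPB5, and both differences passed the test. Among 28 Pol III genes, 11 rose and 10 fell (39.3% and 35.7%, against 31.5% and 30.2% of all genes, median -0.04). Of the 2 subunits shared by Pol I and Pol III, Polr1c rose by 0.81.

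Factors that assemble Pol II and carry it into the nucleus moved apart. Of 20 tested, 9 rose and 4 fell, with a median of 0.24 that turned to -1.26 under mitochondrial scaling, and 5 rose when IAA replicate 2 was left out. Gpn3, a GTPase needed for nuclear import of Pol II, went from 57.86 and 74.74 CPM to 233.7 and 202.7 CPM (log2 1.72 ± 0.10). Uri1, a prefoldin-like partner of polymerase subunits, fell from 126.4 and 147.5 CPM to 38.33 and 28.96 CPM (log2 -2.02 ± 0.13). The RPAP2 phosphatase gene Rpap2 fell by 1.89 and Gpn2 rose by 0.93.

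**Figure D1:**
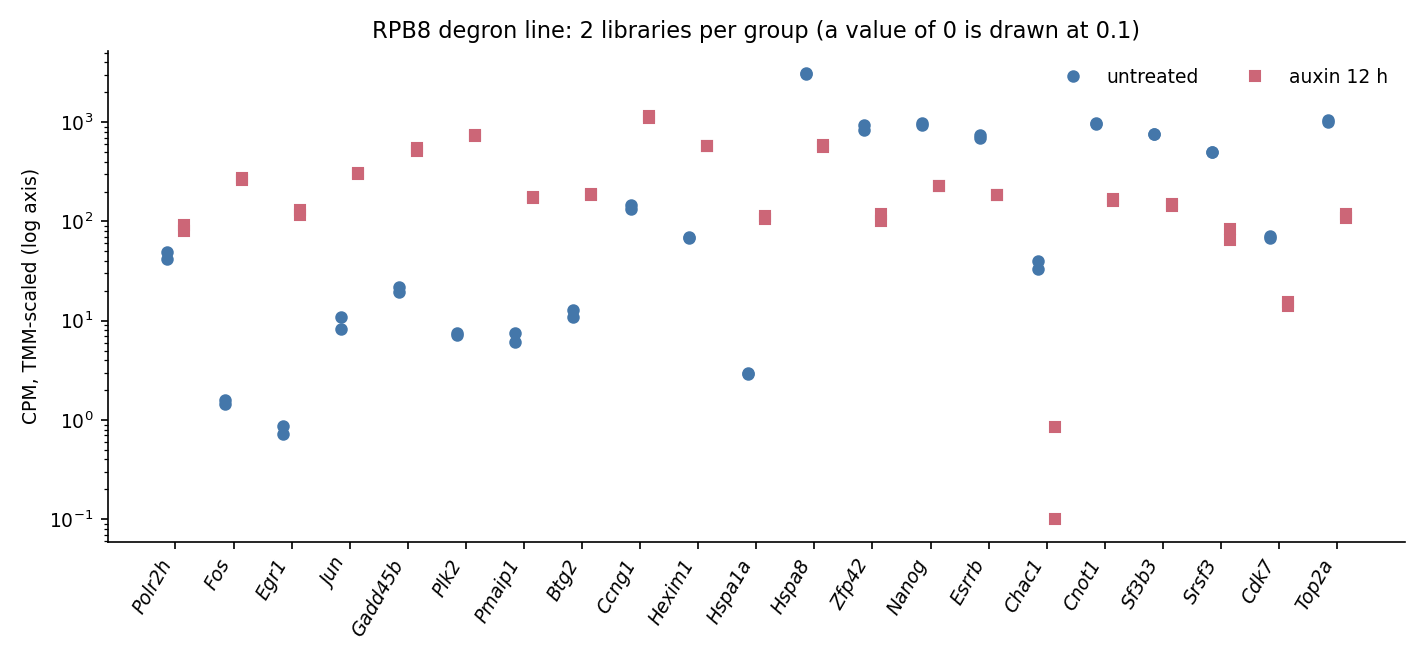
TMM-scaled CPM on a log axis for selected genes in the 2 untreated (circles) and 2 IAA (squares) libraries of the RPB8 line, with a value of 0 drawn at 0.1. Fos stood at 1.573 and 1.444 CPM without IAA and 261.1 and 271.7 CPM with it, and Top2a at 1011 and 1062 CPM without IAA and 119 and 109.3 CPM with it.

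Immediate-early and AP-1 genes, which encode short-lived regulators such as the Fos and Jun transcription factors, rose in most cases. Of 33 tested, 29 rose and 0 fell, with 31.5% of all genes rising, and the median log2 fold change was 2.63 (1.17 with mitochondrial scaling, under which 19 rose and 6 fell). Fos (chromosome 12, 85473890 to 85477273, plus strand) went from 1.573 and 1.444 CPM to 261.1 and 271.7 CPM, a log2 fold change of 7.44 ± 0.23 (adjusted p = 1.55e-29). Jun went from 10.84 and 8.305 CPM to 300.6 and 310.8 CPM (4.99 ± 0.15), and Egr1, a zinc finger factor, from 0.874 and 0.722 CPM to 117.3 and 129.2 CPM. Gadd45b, a stress sensor, went from 22.02 and 19.68 CPM to 553.7 and 518.4 CPM (4.68 ± 0.12). For each of these genes both IAA libraries lay far above both untreated ones. The list's median was -0.01 in WT, 2.40 in RPB1, 1.504 in RPB5 and -0.90 in RPB6.

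Tests of the difference between lines separated these responses gene by gene. Background shares for such differences were 49.5% called against WT, 40.9% against RPB1, 31.6% against RPB5 and 52.1% against RPB6. The RPB8 response was above that of WT for 25 of the 33 genes and below it for 0, where 23.9% of all genes were above. It was above RPB5 for 20 and below for 3 (15.9% of all genes above), and above RPB6 for 30 and below for 0 (26.1%). Against RPB1 it was above for 12 and below for 5 (20.7% of all genes above and 20.2% below), an order that turned with total counts (7 above and 9 below) and with mitochondrial scaling (1 and 9). With mitochondrial scaling it was above WT for 12 and below for 3, above RPB5 for 5 and below for 4, and above RPB6 for 30 and below for 0. Fos differed from RPB5 by 2.78 (adjusted p = 0.00046) and from RPB6 by 4.29 (2.3e-06), and from RPB1 by 0.65 with an adjusted p of 0.44. With TMM scaling Gadd45b exceeded all 4 lines, by 4.59 over WT, 1.21 over RPB1, 2.53 over RPB5 and 4.98 over RPB6.

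The promoters of this list were searched for the letters of the TATA box, the short sequence that TFIID recognises through its TBP subunit. In the 60 bases before the start of each gene's RefSeq transcript, on the coding strand, the letters TATAAA were found in 213 of 12037 promoters matched to tested genes (1.77%). They were found in 73 of 2067 promoters of genes that rose by 1 or more (3.53%) and in 23 of 2247 of genes that fell by 1 or more (1.02%). The immediate-early list had them in 6 of 26 matched promoters (23.1%), the p53 targets in 1 of 18, the ribosomal protein genes in 0 of 58 and the pluripotency genes in 2 of 16. Other letters were searched in 250 bases on either strand. In the immediate-early list TGANTCA (N is any base) was in 1 promoter (3.85%, against 4.18% of all) and TGACGTCA in 1 (3.85%, against 2.65%). CACGTG was in 23.1% (against 8.14%), GCGTG in 53.8% (43.6%) and TATAAA in 26.9% (6.59%). A match is a description of letters and not a measured binding site. The 6 promoters of this list with TATAAA in the 60 bases are shown because they place its members beside one another. They are from RefSeq on GRCm38.p6, 5′ to 3′ on the gene's strand, with TATAAA in capitals. They lie at chr12:85473830-85473889 (plus strand, Fos), chr10:80930031-80930090 (plus, Gadd45b), chr13:51846615-51846674 (plus, Gadd45g), chr10:96616941-96617000 (plus, Btg1), chr3:145649986-145650045 (minus, Ccn1) and chr12:80113014-80113073 (minus, Zfp36l1).
Fos: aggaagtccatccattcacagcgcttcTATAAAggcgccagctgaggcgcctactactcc
Gadd45b: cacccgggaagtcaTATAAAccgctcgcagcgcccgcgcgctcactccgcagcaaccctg
Gadd45g: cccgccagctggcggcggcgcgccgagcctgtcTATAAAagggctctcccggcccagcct
Btg1: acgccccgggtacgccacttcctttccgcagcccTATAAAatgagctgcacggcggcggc
Ccn1: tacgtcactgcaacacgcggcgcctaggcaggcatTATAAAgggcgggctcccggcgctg
Zfp36l1: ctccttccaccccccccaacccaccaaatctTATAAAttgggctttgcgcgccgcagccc
The capitals start 33 bases before the RefSeq start in Fos, 27 in Gadd45g, 26 in Btg1, 25 in Ccn1 and 29 in Zfp36l1, and 46 in Gadd45b. All 6 genes rose: beside Fos and Gadd45b, Gadd45g by 4.53, Ccn1 by 3.03, Btg1 by 2.69 and Zfp36l1 by 1.64 on the log2 scale.

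Targets of the tumour suppressor p53 also rose in most cases. Of 25 tested, 19 rose and 1 fell, with a median of 2.02 (0.51 with mitochondrial scaling, 12 up and 7 down). Plk2, a kinase of the Polo family, went from 7.516 and 7.222 CPM to 723.6 and 737.4 CPM (log2 6.63 ± 0.15), and Ccng1, cyclin G1, from 134.6 and 147.3 CPM to 1159 and 1100 CPM (3.00 ± 0.10). Pmaip1, which encodes the death-promoting protein Noxa, went from 7.516 and 6.138 CPM to 176.2 and 173.5 CPM. Btg2, an antiproliferative gene, rose by 3.96, less than in RPB1 (difference -0.52, adjusted p = 0.043) and in RPB5 (-0.81, 0.0025). The list's median was 0.03 in WT, 1.96 in RPB1 and 2.19 in RPB5. With TMM scaling the RPB8 response was above WT for 20 genes and below for 0. It was above RPB1 for 6 and below for 5, and above RPB5 for 6 and below for 2. Of all genes, 20.7% were above RPB1 and 15.9% above RPB5. In RPB6 the list's median was -0.84, and the RPB8 response was above that of RPB6 for 22 genes and below it for 1 (22 and 0 with mitochondrial scaling). In the Bcl2 family 5 of 15 genes rose and 5 fell, near the shares over all genes. Among them Bcl2l11 rose by 2.37 and Bbc3 by 2.45, both of which promote cell death, and Bcl2l1, which protects cells, fell by 1.43.

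Of 25 chaperone genes tested, 13 rose and 8 fell, with a median of 0.25 that turned to -1.26 under mitochondrial scaling. Hspa1a, the heat-induced HSP70, went from 2.971 and 2.889 CPM to 105.8 and 112.6 CPM (5.21 ± 0.18). Its near-identical copy Hspa1b rose by 3.24, and reads of these copies cannot be told apart with certainty. Hspa8, the constitutive HSP70, went the other way, from 3125 and 3075 CPM to 556 and 583.8 CPM (-2.44 ± 0.08). Hspa5, the HSP70 of the endoplasmic reticulum, rose by 1.05.

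The aryl hydrocarbon receptor, which binds indoles among other ligands, drives Cyp1a1 and Cyp1b1. Both had 0 counts in the untreated RPB8 libraries. Cyp1a1 stood at 24.6 and 19.53 CPM with IAA, at least 82.8-fold higher when the untreated group is set at a floor of 3 counts over the group. Cyp1b1 was at least 15.8-fold higher. In this list 4 of 7 genes rose and 0 fell (2 up and 2 down with mitochondrial scaling), and the fitted log2 fold change of Cyp1a1 in WT was 2.58. The list's median was 1.65 in RPB8, 0.67 in WT, 1.57 in RPB1, 2.33 in RPB5 and 1.595 in RPB6. With TMM scaling the RPB8 response was above WT for 3 genes, RPB1 for 1, RPB5 for 3 and RPB6 for 2. It was below RPB6 for 1 gene and below the other lines for 0.

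Genes that define the pluripotent state fell as a group. Of 25 tested, 22 fell and 3 rose, where 30.2% of all genes fell, and the median log2 fold change was -1.27. Zfp42, the stem cell marker REX1, went from 940.4 and 830.8 CPM to 118.1 and 101.5 CPM (-3.01 ± 0.09). Nanog, a core pluripotency factor, went from 927.1 and 971.8 CPM to 229.4 and 225.2 CPM (-2.06 ± 0.08), and both IAA libraries lay below every untreated one. Esrrb fell by 1.97, the growth factor gene Fgf4 by 1.96 and the Nodal co-receptor gene Tdgf1 by 1.89. The 3 that rose were Pou5f1, Dppa3 and Dppa5a, named after their values were seen. Pou5f1, which encodes OCT4, went from 1004 and 818.9 CPM to 1628 and 1820 CPM (0.92 ± 0.14), a direction that turns under mitochondrial scaling, as do those of Dppa3 (1.02) and Dppa5a (0.80). Dppa3 was not called without untreated replicate 1 (0.47), IAA replicate 1 (1.06) or IAA replicate 2 (0.88). The list's median was -1.39 in RPB1, -1.14 in RPB5 and -1.12 in RPB6, and -0.16 in WT. The RPB8 response was lower than that of WT for 19 genes and higher for 2, while against RPB1 it was lower for 5 and higher for 10, an order that turned with total counts (8 lower and 6 higher) and with mitochondrial scaling (9 and 0). With TMM scaling Nanog fell less than in RPB1 (difference 0.90, adjusted p = 3.4e-08) and more than in RPB6 (-1.10, 3.6e-11). With mitochondrial scaling 0 genes of the list, Nanog included, were called higher than in RPB1. Under that scaling 942 of all genes were lower than in RPB6, against 4661 with TMM.

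The hairpin genes of the miR-290 to miR-295 cluster, a main microRNA cluster of mouse embryonic stem cells, lie on chromosome 7 between 3218626 and 3220841. This list was added after its members appeared among the lowest genes. Reads on these genes in a poly(A) library come from the long precursor and not from mature microRNAs. These mature sequences from RefSeq are shown because 3 of them have 1 seed in common, bases 2 to 8, given in capitals.
miR-291a-3p: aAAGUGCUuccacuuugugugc
miR-294-3p: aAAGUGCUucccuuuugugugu
miR-295-3p: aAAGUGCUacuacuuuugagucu
miR-290a-3p: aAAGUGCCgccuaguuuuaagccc
miR-291b-3p: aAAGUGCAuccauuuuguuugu
miR-293-3p: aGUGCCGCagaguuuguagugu
The first 3 have the same seed, the next 2 differ from it in its last base, and miR-293-3p has another. Of 8 tested hairpin genes, 7 fell and 0 rose, where 30.2% of all genes fell. Their median log2 fold change was -4.56, or -3.89 with genes at 0 set to their floor. Because the reads come from the long precursor, these genes are repeated readings of it and not separate members. Mir295 had 81 and 97 counts without IAA and 3 and 2 with it. Mir291b had 78 and 62 counts without IAA and 2 and 0 with it, and Mir293 had 62 and 70 against 2 and 2. Mir290a and Mir291a had no count in either IAA library. The RPB8 response was lower than those of WT and RPB5 for 7 hairpin genes each (line medians 0.24 and -0.95). Of all genes, 25.6% were lower than in WT and 15.6% than in RPB5. The difference did not pass the test against RPB1 or RPB6 for any hairpin gene (line medians -4.61 and -6.41).

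Lineage genes moved without a common direction, beside 31.5% of all genes rising and 30.2% falling. Primitive endoderm genes had 2 up and 2 down of 8, mesoderm genes 3 up and 1 down of 11, neuroectoderm and epiblast genes 3 up and 5 down of 13, and trophectoderm genes 2 up and 4 down of 8. Only 1 primitive endoderm and 1 trophectoderm gene rose without untreated replicate 1 or without IAA replicate 1, and 1 primitive endoderm gene without IAA replicate 2. Neurog2, a neurogenic factor, had no counts in untreated cells and stood at 7.15 and 5.207 CPM with IAA, at least 23.2-fold higher. Among trophectoderm genes, Hand1 rose by 3.77 and Tead4 fell by 2.16. Of 10 genes of the 2-cell-like state, a rare state of these cultures, 9 rose and 1 fell, with a median of 2.26, but with mitochondrial scaling 0 rose and 1 fell. Their summed level went down, from 279.5 and 303.7 TMM-scaled CPM to 175 and 155.9 CPM, through the 1 gene that fell. The genes that rose were low (Usp17la at 0.1748 and 0.3611 CPM without IAA and 2.288 and 2.929 CPM with it). Genes this low in untreated cells could pass the expression filter through IAA libraries alone. That 9 of 10 rose is thus partly set by the filter and is not read as a result. The Zscan4 copies in the list share sequence, so their counts are uncertain.

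**Figure D2:**
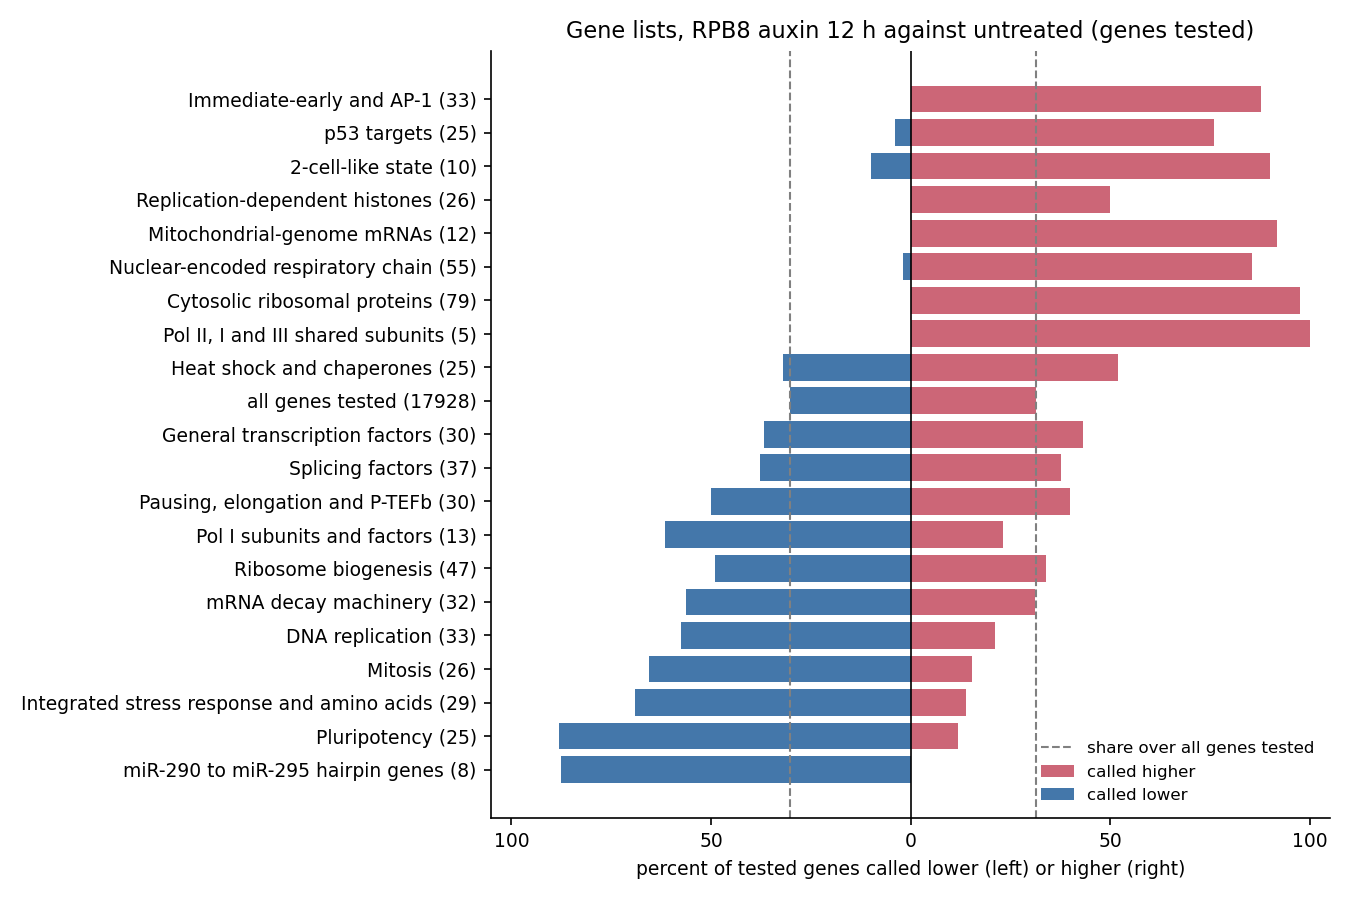
Percent of the tested genes of each list called higher (right) or lower (left) after IAA, with the number tested in brackets and dashed lines at the shares over all genes. Cytosolic ribosomal proteins (77 of 79 higher) and pluripotency genes (22 of 25 lower) lie on opposite sides, with TMM scaling. With mitochondrial scaling 0 ribosomal protein genes were higher and 55 lower.

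Genes for the ribosome's own proteins rose almost together. Of 79 cytosolic ribosomal protein genes, 77 rose and 0 fell, with a median log2 fold change of 0.83, but with mitochondrial scaling 0 rose and 55 fell (median -0.68, against -1.44 over all genes). Rplp0, of the ribosomal stalk, went from 1750 and 1670 CPM to 3957 and 4081 CPM (1.23 ± 0.08). The 2 genes that did not pass were Rpl13a, at -0.08, and Rps10, at 0.38. The median was -0.08 in WT, 0.15 in RPB1, 0.23 in RPB5 and 1.36 in RPB6. The RPB8 response was above that of RPB1 for 73 genes and of RPB5 for 64, and below that of RPB6 for 66 and above it for 2. With total counts these counts were 31 above RPB1, 42 above RPB5 and 2 below RPB6, and with mitochondrial scaling 0 were above RPB1 or RPB5 and 0 below RPB6.

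Nuclear genes of the respiratory chain followed the same pattern. Of 55, 47 rose and 1, Ndufs1, fell (-0.68), and the median of 0.92 turned to -0.60 under mitochondrial scaling, with 0 up and 29 down. Atp5b, the catalytic subunit of ATP synthase, went from 1741 and 1685 CPM to 3272 and 3279 CPM (0.94 ± 0.07). Of 12 tested mitochondrial-genome mRNAs, 11 rose and 0 fell (median 1.73, and 0.23 when scaled to themselves). The most abundant, mt-Co1, went from 4259 and 4611 CPM to 11320 and 12360 CPM (1.42 ± 0.14), and mt-Nd5 rose by 1.81.

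Factors that build the ribosome did not follow its proteins. Of 47 ribosome biogenesis genes, 16 rose and 23 fell (median -0.22), with 10 rising when IAA replicate 2 was left out. Nop58, a core protein of box C/D snoRNPs, fell by 2.05, and the small-subunit processome genes Wdr43, Utp4 and Utp20 fell by 1.78, 1.46 and 1.39. Of 15 host genes of small nucleolar RNAs, 5 rose and 6 fell, with 3 rising without untreated replicate 2 or without IAA replicate 1. Snhg5 fell by 1.82 and Gas5 by 0.92, whereas Snhg20 rose by 2.26 and Dancr by 1.33. Compared with RPB5, the response of 11 of the 15 was higher and of 1 lower, or of 1 each with mitochondrial scaling. Among transcripts that overlap ribosomal RNA sequence, Gm26917 went from 315.3 and 148.6 CPM to 1827 and 2067 CPM (3.07 ± 0.31) and Gm42418 rose by 2.54. In RPB5, Gm26917 was at -0.31 and the difference of 3.38 passed the test (adjusted p = 4.7e-08). Reads from repeated ribosomal RNA can be placed on these genes, so their counts are uncertain. The Pol III transcript Rn7sk, which holds P-TEFb inactive, stood at 1.748 and 1.264 CPM without IAA and 1.716 and 2.603 CPM with it (log2 0.49 ± 0.60, adjusted p = 0.489). Its log2 change was 4.38 in RPB5 and 7.996 in RPB6, and both differences passed the test, although a poly(A) library samples this RNA poorly.

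Genes of the initiation and elongation machinery moved in both directions. Of 30 general transcription factor genes, 13 rose and 11 fell (43.3% and 36.7%, against 31.5% and 30.2% of all genes, median 0.06). The 3 genes of the CDK-activating kinase of TFIIH all fell. Cdk7, its kinase, went from 70.79 and 68.24 CPM to 15.44 and 13.99 CPM (-2.23 ± 0.14), Mnat1 fell by 1.81 and Ccnh, named after its value was seen, by 1.51. The fall of Cdk7 exceeded that in RPB1 by 1.49 and that in RPB5 by 1.83 (both called), and in RPB6 the difference was -0.02 with an adjusted p of 0.98. Of the TFIID subunits, Taf13 rose by 2.02 and Taf10 by 1.20. Of 30 pausing and elongation genes, 12 rose and 15 fell (median -0.29). Hexim1 (chromosome 11, 103116231 to 103119725, 1 exon), which together with the 7SK RNA inhibits P-TEFb, went from 68.34 and 70.05 CPM to 570.9 and 574.4 CPM (3.05 ± 0.10). With TMM scaling its response exceeded that of all 4 comparison lines, by 3.03 over WT, 0.68 over RPB1, 2.04 over RPB5 and 3.67 over RPB6. With mitochondrial scaling only 63 of all genes were above RPB1 and 72 above RPB5. Cdk12, an elongation kinase, fell by 2.39, and Cdc73 of the PAF complex fell by 1.57.

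Among splicing factor genes, 14 of 37 rose and 14 fell (37.8% each, against 31.5% and 30.2% of all genes, median -0.03). Srsf3, an SR protein, went from 499 and 501 CPM to 84.66 and 65.41 CPM (-2.73 ± 0.10), and Sf3b3, of the U2 particle, from 760.3 and 759 CPM to 143.9 and 149.7 CPM (-2.37 ± 0.07). Srsf1 fell by 1.11, and Prpf19 rose by 1.21, a direction that turns under mitochondrial scaling. Of 6 kinases of SR proteins, Clk1 rose by 0.99, Clk3 by 0.86 and Clk4 by 1.79, Srpk1 fell by 0.76 and Srpk2 by 1.99, and Clk2 was at -0.18 and did not pass the test. With mitochondrial scaling 0 of these 6 rose and 4 fell.

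Among mRNA decay genes, 10 of 32 rose and 18 fell (median -0.36). Cnot1, the scaffold of the CCR4-NOT deadenylase (chromosome 8, 95719451 to 95807464, 49 exons), went from 966.4 and 988.6 CPM to 160.5 and 169.9 CPM (-2.57 ± 0.11). Its fall exceeded that in all 4 comparison lines, by 0.88 for RPB1, 1.41 for RPB5, 1.80 for RPB6 and 2.62 for WT. The adaptors that bring this complex to mRNAs went the other way: Tob1 went from 47.19 and 50.55 CPM to 362.4 and 381.4 CPM (2.93 ± 0.10), and Btg1 rose by 2.69. Pabpc1, the poly(A)-binding protein, rose by 1.00 from 1907 and 1979 CPM.

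Cell cycle genes mostly fell. Of 33 DNA replication genes, 19 fell and 7 rose (median -0.55), and of 26 mitotic genes, 17 fell and 4 rose (-0.69). Top2a, which untangles chromosomes, went from 1011 and 1062 CPM to 119 and 109.3 CPM (-3.18 ± 0.10), and its fall exceeded that in each comparison line, by 0.38 to 3.19. Kif11, a spindle motor, fell by 1.79 and Pola1, the catalytic subunit of DNA polymerase alpha, by 1.72. Fen1, a flap nuclease, rose instead, from 116.6 and 101.5 CPM to 352.4 and 363.2 CPM. Of 64 replication-dependent histone genes, whose mRNAs normally lack a poly(A) tail, 26 were tested. Of these, 13 rose and 0 fell (median 1.78, or 0.30 with mitochondrial scaling). Together the 26 summed to 36.36 and 33.04 TMM-scaled CPM without IAA and 147 and 146.4 CPM with it. Members near 0 in untreated cells could pass the expression filter through IAA libraries alone. The counts and median of this list are thus partly set by the filter and are not read as a result. Hist2h2be went from 1.748 and 1.625 CPM to 32.61 and 29.61 CPM (4.19 ± 0.28). Of 10 polyadenylated histone variants 6 rose and 2 fell, led by H2afj at 2.50, with a median of 0.45 that turned to -1.06 under mitochondrial scaling (1 up and 8 down). Histone copies share sequence, so single members are uncertain.

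Amino acid and integrated stress genes, which ATF4 drives, fell in 20 of 29 cases and rose in 4 (median -0.68). Chac1, a glutathione-degrading enzyme, went from 39.68 and 33.22 CPM to 0.858 and 0 CPM (-6.25 ± 0.40), the lowest fold change that the rule for naming genes selected. Pck2 fell by 2.64, the arginine transporter gene Slc7a1 by 2.03 and Slc38a2 by 1.58. Ddit3, which encodes CHOP and was named after its value was seen, rose by 1.02 on this scaling, against the list's direction. Other metabolic lists were mixed, beside 31.5% of all genes rising and 30.2% falling. Hypoxia targets had 9 up and 8 down of 25, with Ddit4 up by 3.15 and Hk2 and Pdk1 down by 2.32 and 2.05. Sterol genes had 8 up and 4 down of 24, with Insig1 up by 1.47. NRF2 targets had 7 up and 5 down of 14 (3 down without untreated replicate 1 or IAA replicate 2), with the ferritin gene Fth1 up by 1.46 and Gclm down by 1.38. In the Myc network 4 rose and 4 fell of 12, with Myc up by 1.85 and Mga, a partner of MAX, down by 2.96.

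The highest single changes came from genes near 0 in untreated cells. Uts2r had 0 counts without IAA and stood at 34.04 and 33.85 CPM with it, at least 127-fold higher. Adm, the vasodilator adrenomedullin, went from 0 and 0.1805 CPM to 38.9 and 38.73 CPM. At the other end, the log2 fold change was -4.93 for Vldlr, -4.70 for Nlrp12, -4.61 for Mipol1, -4.56 for Srgap1 and -4.31 for Enox1. The last 3 are long genes, of 266773, 266325 and 564998 bp from first to last base.

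Across all protein-coding genes, short genes rose and long genes fell. The 14241 tested genes with a span were divided into 5 groups of equal size by their length in the genome, introns included. The shortest group, 87 to 7661 bp, had a median log2 fold change of 0.77, with 1609 genes up (56.5%) and 296 down (10.4%), but this median was -0.70 with mitochondrial scaling. The next groups had medians of 0.34, 0.01 and -0.40. The longest group, from 64900 bp, had a median of -0.94, with 239 genes up (8.39%) and 1787 down (62.7%). The 266 genes over 300000 bp had a median of -1.15, with 16 up and 162 down. Among genes of at least 10 CPM in untreated cells of the other lines, medians ran from 0.59 in the shortest group to -1.05 in the longest, where 78.3% fell.

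Span, exon number and mature length go together in the genome, so span was also read within classes of the other measures. Genes of 1 exon had a median of 1.30 (n = 377), genes of 2 to 5 exons 0.56, and genes of more than 20 exons -0.69. By exonic length the medians fell from 0.54 in the shortest group to -0.72 in the longest. Within the group of shortest exonic length, 3 classes of rising span had medians of 0.86, 0.65 and 0.10, and within the longest, -0.22, -0.73 and -1.16. Within genes of 2 to 5 exons the 3 classes by span had medians of 0.89, 0.65 and 0.01. The order by span was thus present within these classes as well. The untreated level showed less of an order: the lowest of 5 groups by level had a median of 0.94 and the others lay between -0.14 and -0.17. Genes near 0 in untreated cells could pass the expression filter through IAA libraries alone. The median of the lowest group is thus partly set by the filter and is not read as a result. Among noncoding classes, 612 lincRNA genes had a median of 0.72, 667 processed pseudogenes 0.81 and 48 snoRNA genes -1.51, with 18 of the latter down and 3 up. The same limit holds for noncoding genes of low level.

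**Figure D3:**
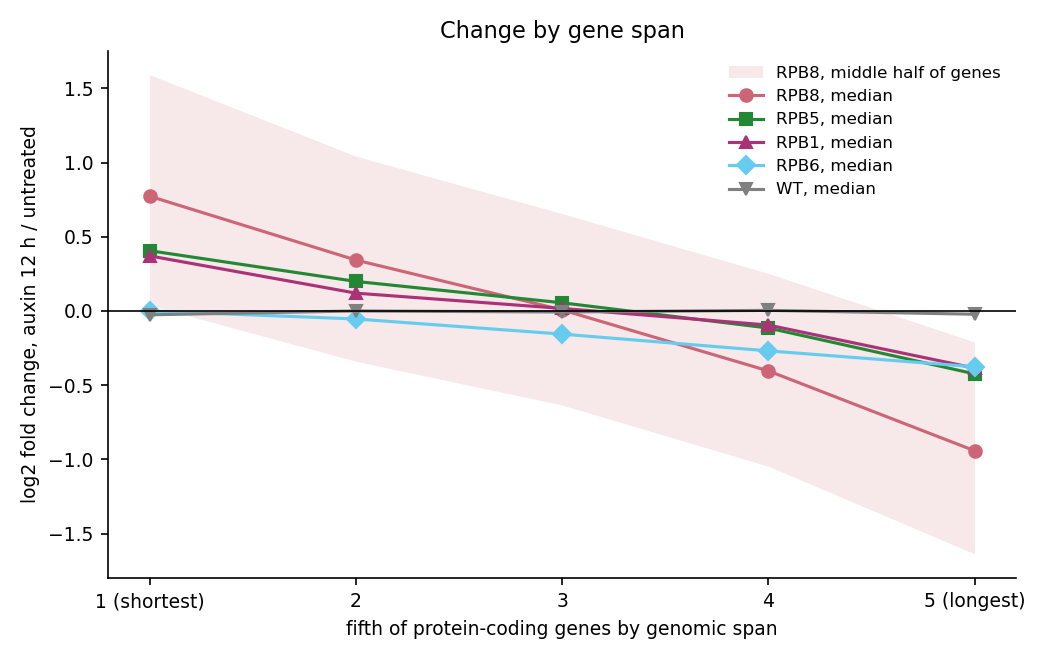
Median log2 fold change, IAA over untreated, for 5 groups of protein-coding genes of rising genomic span for RPB8 and the comparison lines, with the middle part of RPB8's genes shaded from the lower to the upper quartile. The RPB8 line runs from 0.77 to -0.94, with TMM scaling. With mitochondrial scaling the shortest group is at -0.70.

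The order by span was steeper in RPB8 than in the comparison lines. The median of the longest group minus that of the shortest was -1.72 in RPB8, -0.83 in RPB5, -0.76 in RPB1, -0.38 in RPB6 and 0.00 in WT. Of the lines outside the comparison, the steepest were RPB10 at -0.73, RPB2 at -0.62 and RPB9 at -0.29. Across genes, the Spearman correlation of log2 fold change with log10 span was -0.47 in RPB8, -0.36 in RPB10, -0.27 in RPB5 and -0.23 in RPB1. These correlations are a description, since genes share libraries and are not independent. Tests of the difference gene by gene gave the same order. Against RPB1, 1024 of the 2849 shortest genes (35.9%) had a higher response in RPB8 and 220 (7.72%) a lower one, while of the longest 8.74% were higher and 1103 (38.7%) lower. Against RPB5 the shortest had 880 higher and 130 lower, and the longest 135 higher and 976 lower. Against RPB6 the shortest had 1041 higher and 511 lower, and the longest 379 higher and 1185 lower. Against WT the shortest had 1313 higher and 226 lower, and the longest 172 higher and 1580 lower.

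Single libraries showed the same contrast without a fitted model. The median level of the longest group minus that of the shortest, relative to the untreated cells of other lines, was 0.07 and 0.22 in untreated RPB8 cells and -1.39 and -1.43 with IAA. Both RPB8 IAA libraries lay below the next lowest of the 52, the RPB10 IAA libraries at -0.95 and -0.93. One untreated library, RPB7 replicate 2, was at -0.64 without IAA, so this measure also varied between libraries without treatment.

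**Figure D4:**
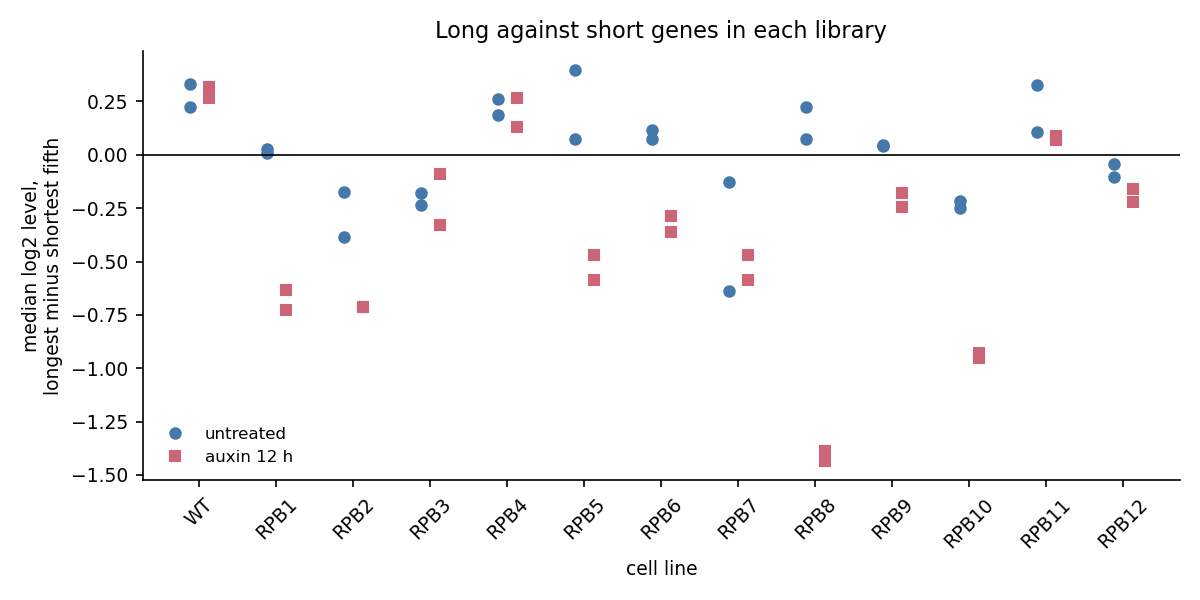
Median log2 level of the longest minus the shortest of the 5 span groups of protein-coding genes, relative to untreated cells of other lines, in each of the 52 libraries by cell line. The RPB8 IAA libraries sit at -1.39 and -1.43, below all others, and the untreated RPB8 libraries at 0.07 and 0.22.

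A further reading used genes silent in this cell type. Of the protein-coding genes on autosomes, 3722 had no count in the 24 untreated libraries of the 12 other lines. They summed to 4.786 and 5.0 CPM of all counts in untreated RPB8 cells and to 84.68 and 87.95 CPM with IAA. With IAA the sum was 9.53 ± 1.49 CPM in WT and 12.2 ± 1.84 in RPB6, 145 ± 14.5 in RPB5 and 476 ± 11.5 in RPB1 (SD, n = 2 each). RPB8 thus lay between these groups and overlapped none of them. The rise was spread thinly: 65 of the genes had counts in both IAA libraries, 9 had 10 counts or more, and the top 10 gave 29.3% of the counts. The highest was Hba-x, an embryonic globin, with 14 and 15 counts (at least 16.7-fold higher), followed by Trim30b, Nepn and Ankrd7.

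The RPB8 response resembled those of RPB5 and RPB1 more than that of RPB6. Over the 17928 genes, the Pearson correlation of log2 fold changes was 0.71 with RPB5, 0.66 with RPB1, 0.29 with RPB6 and 0.02 with WT, as a description across genes. Of all genes, 66.3% were called in RPB1, 59.1% in RPB5 and 60.7% in RPB6. Genes called in the same direction in RPB8 and RPB5 numbered 7224, or 65.3% of RPB8's calls and 68.2% of RPB5's. With RPB1 they numbered 6962 (62.9% and 58.5%), and with RPB6 5306 (48.0% and 48.8%). The responses still differed: the difference passed the test for 5657 genes against RPB5, 7324 against RPB1, 9346 against RPB6 and 8871 against WT. Scaling matters here too, since with mitochondrial scaling the difference from RPB1 was called higher for 63 genes and lower for 6128.

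Genes whose response in RPB8 was apart from all 4 lines numbered 665 higher (3.71%) and 486 lower (2.71%), each with the RPB8 change and all 4 differences called in 1 direction. With mitochondrial scaling 7 genes met this rule on the higher side. Yod1, a deubiquitinase gene of 2 exons, went from 8.04 and 10.83 CPM to 155.6 and 153 CPM (4.03 ± 0.17), against changes of 1.47 in RPB1, 1.503 in RPB5 and -0.79 in RPB6. Snhg10, a small nucleolar RNA host, rose by 5.13 from at most 0.5416 CPM. Dnajb9, a chaperone of the endoplasmic reticulum, went from 15.91 and 15.53 CPM to 331.5 and 328 CPM, and Rbmx, a splicing regulator, from 11.01 and 9.749 CPM to 48.05 and 45.89 CPM. These 2 were chosen after their values were seen, for their level, as were the next 2. Trerf1, a zinc finger gene, went from 34.26 and 33.58 CPM to 4.576 and 3.58 CPM (-3.04 ± 0.22), and Cdh3, P-cadherin, from 26.22 and 25.28 CPM to 2.002 and 4.556 CPM. Tgfa, a ligand of the EGF receptor, had no counts left with IAA and was at least 4.85-fold lower. Ahdc1 went from 111 and 98.57 CPM to 8.008 and 11.72 CPM and was at 0.02 in RPB5, a difference of -3.44 (adjusted p = 1.1e-15). The distinct genes differed in span: the 614 protein-coding ones that were higher had a median of 8477 bp and the 466 that were lower 76945 bp, against 22393 bp over all 14241.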

How the data were processed

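The file the authors deposited lists raw read counts, whole numbers without normalization, for 55335 mouse genes by Ensembl identifier. Per the submitters' processing notes, cutadapt 1.18, STAR, featureCounts and DESeq2 were among the tools, with builds mm10 and dm6. Per the labels' protocols, libraries were poly(A) selected and 10% Drosophila cells served as a spike-in. The table holds 0 fly genes, so spike-in counts were not used here, and a fall of all mRNAs together leaves these shares unmoved. The sources used here give neither annotation nor strand setting, so near-identical, overlapping and antisense genes are uncertain. A sample was found by name for 64 columns, and 4 others were left unused. Gene symbols and positions are those of GENCODE M21 (mm10).

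Tests used edgeR 4.0.16 in R 4.3.3 (glmQLFit and glmQLFTest, two-sided) on the counts after filterByExpr, with TMM scaling, and p-values were Benjamini-Hochberg adjusted over all genes tested in a comparison, at 0.05. The fit held the 52 libraries of the 12 h set with 1 coefficient for each of 26 groups of 2 (26 residual degrees of freedom, biological coefficient of variation 7.04% at the median). Contrasts were IAA against untreated in RPB8, and that response minus the response of WT, RPB1, RPB5 or RPB6. At least 99.77% of counts were kept in each RPB8 library, and their scaling factors ran from 0.9058 to 1.027. The 2 replicates of a group had correlations of log2 CPM of 0.9898 and 0.9817 and differed by more than sampling noise (chi-square per degree of freedom 2.617 and 1.409). Alternatives were DESeq2 1.42.0, other scalings and filters, a replicate block, the 4 libraries alone and leaving out each library. Other values came from pandas 2.3.3 and numpy 2.4.6, and figures from matplotlib 3.10.9.

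Members, gene lists and tests were chosen with earlier results of these data known, and the miR-290 list was added after its genes were seen. Genes were named by rule: the polymerase subunits, the 10 highest and 10 lowest called genes averaging at least 5 CPM, the 6 most abundant called genes in each direction, the first 4 of each list by adjusted p (any member of lists of 13 or fewer), and the leading genes of each difference between lines. Genes named outside the rule were chosen after their values were seen: Ccn1, Ccnh, Cdh3, Ddit3, Dnajb9, Dppa3, Dppa5a, Gadd45g, Mir290a, Mir291a, Ndufs1, Pou5f1, Rbmx, Rpl13a, Rps10, Trerf1, Usp17la and Zfp36l1. Floors of 3 counts over a group cover counting error only. Promoter and microRNA sequences came from RefSeq on GRCm38.p6.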

Additional observations from a re-analysis of the deposited data

Results flagged for a closer look

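Some genes moved in opposite directions in RPB8 and in another line, with both changes and the difference itself called by edgeR's quasi-likelihood test. Against WT there were 83 such genes, 33 of them higher in RPB8 and 50 lower. Against RPB1 there were 971, of which 519 were higher and 452 lower in RPB8. Against RPB5 there were 629, of which 297 were higher and 332 lower. Against RPB6 there were 2295, of which 1310 were higher and 985 lower, more than against RPB1 or RPB5. These counts depend on how many genes were called in each line: 295 in WT, 11894 in RPB1, 10595 in RPB5 and 10875 in RPB6. The count against WT is therefore not ranked beside the others. Directions are relative to each library's bulk, and were not counted again with mitochondrial scaling.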

How the results depend on the processing

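Each alternative left the number of genes called for RPB8 in either direction within 1.5 times its value (8679 at a mean of 5 CPM or more to 12802 with mitochondrial scaling), but the latter moved it from 5642 to 1003 higher and from 5423 to 11799 lower. Scaling to the 13 mitochondrial mRNAs had the widest effect. Under it the difference from RPB6 was called for 5568 genes, 7 genes were distinctly higher in RPB8 (429 with total counts), the median of the shortest of the 5 span groups turned to -0.703 and that of the longest was -2.428. With total counts these medians were 0.612 and -1.104. Leaving out 1 library gave 0.694 to 0.859 for the shortest group and -1.022 to -0.944 for the longest. Allowing 1 count in place of 0 for genes silent elsewhere gave a sum of 165.1 CPM after IAA.

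Of the lists whose medians are discussed, those that turned under mitochondrial scaling were -0.801 for shared subunits, -0.895 for Pol II subunits, -1.260 for assembly factors, -1.448 for general transcription factors (-0.104 with total counts), -1.257 for chaperones, -0.680 for ribosomal proteins, -0.602 for the respiratory chain and -1.063 for polyadenylated histones. Medians of smaller or mixed lists turned as well: -1.130 for NRF2 targets, -1.311 for sterol genes, -1.172 for SR protein kinases, -1.358 for the Bcl2 family, -0.979 for mesoderm, -1.025 for interferon response, -1.152 for fibroblast genes and -1.018 for the subunits shared by Pol I and Pol III. Of 135 named genes, 27 turned in the same way: Polr2h (-0.596), Polr2a (-0.662), Polr2c (-0.811), Polr2e (-0.801), Polr2f (-1.100), Polr2g (-0.895), Polr2k (-0.954), Polr1c (-0.701), Taf1d (-0.572), Taf10 (-0.310), Gpn2 (-0.587), Prpf19 (-0.302), Clk1 (-0.511), Clk3 (-0.654), Pabpc1 (-0.505), Pou5f1 (-0.605), Dppa3 (-0.461), Dppa5a (-0.713), Ddit3 (-0.496), Hspa5 (-0.456), Fth1 (-0.048), Insig1 (-0.040), Dancr (-0.161), Rplp0 (-0.281), Atp5b (-0.577), Sparc (-0.321) and mt-Co1 (-0.092). No named gene turned under the other alternatives. Counts of list members under the alternatives, and span medians and distinct genes under some of them, were added after seeing the data. DESeq2 lost 4 of the named calls (Polr2b, Polr2i, Hba-x and Trim30b).

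The labels do not say whether same-numbered replicates were paired. Across genes, the correlation of same-numbered deviations was -0.1345 in RPB8, and ran from -0.2948 in RPB7 to 0.1006 in WT. With 2 libraries a group, such a correlation cannot decide whether samples were paired. A fit with a replicate block called 5410 genes higher and 5258 lower.

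With 2 libraries a group and 3399838 counts in the shallowest, genes of a few counts have wide errors, and a gene that did not pass the test is not shown to be unchanged.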
